A study of Homo sapiens with 20 samples.

Results

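The STAG2 binding sites of M14 cells were compared with and without STAG2 knockdown (KD), using the 4 peak lists made with a STAG2 antibody. Members were all peaks of these lists on chromosomes 1 to 22 and X, which gave 362585 of the 1599606 peaks in the 16 lists of the series. M14 is an established human melanoma line, and the cells carried a doxycycline-inducible shRNA against STAG2 in every group. WT cells had no doxycycline and STAG2-KD cells were given doxycycline, for 5 days per the labels of replicate 1, whereas the labels of replicate 2 give no time. Each group had 2 libraries, 1 from each of 2 experimental sets that differ in chromatin preparation, size selection and peak threshold, so WT and STAG2-KD lists were compared only within a replicate. The same cells carried the construct throughout, a single shRNA was used, and the lists hold no measure of the STAG2 protein itself.

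Cohesin is a ring complex that folds chromatin into loops and holds sister chromatids together. Each ring carries either STAG1 or STAG2, 2 alternative subunits that help load it on DNA and hold it there, while SMC1A is a core part of all such rings. CTCF binds DNA at a set motif, and moving rings often halt there. STAG2 is found at CTCF sites and also at enhancers and promoters without CTCF, and its gene is mutated in several cancers.

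The lists have limits that touch every result below. A peak marks a place where the antibody recovered more fragments than expected, and its strength is given here as a percentile of −log10 p within its own list, from 0 for the weakest to 100 for the strongest peak. A WT peak with no STAG2-KD peak over it by at least 1 bp was called lost, a STAG2-KD peak with no WT peak was called gained, and the others were called retained. These calls say whether a peak passed the authors' threshold, so a site slightly under the threshold counts as absent. Read depth, worked out from the fold enrichments and p-values, was 0.951 times as high in STAG2-KD as in WT in replicate 1 and 1.03 times in replicate 2, and 1.05 and 1.04 times after the scaling of the peak caller. Nearly all WT peaks of replicate 1 recurred in the longer WT list of replicate 2, but not the reverse. Of the WT peaks of replicate 1, 98.1% overlapped a WT peak of replicate 2. Of the WT peaks of replicate 2, 59.6% overlapped a WT peak of replicate 1. The weakest decile of each of the 8 lists of replicate 1, all antibodies included, was also compared with every list of replicate 2. It overlapped the list with the same label more often than any other, in 8 of 8 cases. For WT STAG2 this overlap of weak peaks was 97.5% with the WT STAG2 list and 78.6% with the STAG2-KD STAG2 list. Whether the replicates came from separate cultures is not stated in the labels, so loss in both replicates is given as a description.

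Reference sequences (hg19, plus strand, 5′ to 3′) of a few retained, lost and gained sites are given as examples. The first 3 come from the 10 strongest sites held in all 4 lists and were picked because they contained a match to the CTCF core motif CCNNNAGGNGGC, which the other 7 lacked. The match is in capitals (in the second, 2 overlapping matches):
chr19:34269062-34269202, between genes: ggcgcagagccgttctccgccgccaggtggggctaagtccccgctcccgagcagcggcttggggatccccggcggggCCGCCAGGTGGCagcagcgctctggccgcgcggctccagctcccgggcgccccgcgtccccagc
chr1:181111708-181111848, between genes: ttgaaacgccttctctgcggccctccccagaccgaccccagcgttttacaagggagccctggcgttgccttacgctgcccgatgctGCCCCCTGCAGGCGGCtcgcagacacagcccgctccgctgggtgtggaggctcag
chr19:36184787-36184927, between genes: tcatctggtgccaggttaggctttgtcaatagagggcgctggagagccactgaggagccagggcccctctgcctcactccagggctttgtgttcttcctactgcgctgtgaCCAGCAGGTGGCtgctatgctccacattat
Of the 10 strongest sites lost in both replicates, 0 held a match in the 100 bp on either side of the summit, while over all sites of that class 5.74% did, against 15.3% of sites retained in both. The next 3 windows are centred on the summits of lost peaks in ALB, in a processed pseudogene inside AP3B1 and in an intron of GLI3, with bases annotated as coding in any transcript in capitals:
chr4:74274264-74274504, ALB: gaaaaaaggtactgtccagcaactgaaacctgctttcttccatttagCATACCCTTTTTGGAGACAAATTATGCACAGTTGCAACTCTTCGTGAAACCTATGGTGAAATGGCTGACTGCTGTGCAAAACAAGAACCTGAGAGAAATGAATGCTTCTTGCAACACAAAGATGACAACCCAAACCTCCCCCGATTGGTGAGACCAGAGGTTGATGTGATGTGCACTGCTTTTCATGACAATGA
chr5:77518062-77518302, ATP6V1G1P6 in AP3B1: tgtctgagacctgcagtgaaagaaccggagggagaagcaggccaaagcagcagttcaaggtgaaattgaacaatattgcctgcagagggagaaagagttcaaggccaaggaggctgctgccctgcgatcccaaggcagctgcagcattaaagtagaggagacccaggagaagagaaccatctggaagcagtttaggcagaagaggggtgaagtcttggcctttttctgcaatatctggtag
chr7:42194352-42194592, GLI3: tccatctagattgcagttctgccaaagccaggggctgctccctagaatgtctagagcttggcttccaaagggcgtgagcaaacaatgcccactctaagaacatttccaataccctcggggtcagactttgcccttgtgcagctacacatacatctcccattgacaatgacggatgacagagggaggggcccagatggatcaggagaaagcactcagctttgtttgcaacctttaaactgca
The last is a peak gained in both replicates, shown because the strongest gained peaks were rich in G and C, and it holds no match:
chr19:15334326-15334466, between genes: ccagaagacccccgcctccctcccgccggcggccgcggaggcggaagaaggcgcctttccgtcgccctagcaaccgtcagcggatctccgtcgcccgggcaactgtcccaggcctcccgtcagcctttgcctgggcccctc

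Most STAG2 sites kept a peak after knockdown, and those without one were the weak sites. The lists held 79048 peaks for WT and 58418 for STAG2-KD in replicate 1, and 118984 and 106135 in replicate 2. Averaged over replicates, the log2 ratio was −0.30 ± 0.19 (SD, n = 2). By exact permutation, two-sided, p was 0.667, and with 2 lists against 2 it cannot go below 0.333. In replicate 1, 25439 WT peaks were lost, which was 32.2% of the list, and in replicate 2 the number was 26272, or 22.1%. Gained peaks were fewer, with 3811 (6.52%) in replicate 1 and 12724 (12.0%) in replicate 2. The mean lost share was 27.1% ± 7.14 and the mean gained share 9.26% ± 3.86 (SD, n = 2 replicates).

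Strength in WT separated the classes in both replicates. Lost peaks had a median WT percentile of 20.3 in replicate 1 and 17.4 in replicate 2, whereas retained peaks had 66.1 and 61.0. In fold enrichment over background, the medians in replicate 1 were 4.82 for lost and 14.4 for retained peaks, and in replicate 2 they were 2.95 and 6.18. Lost peaks were also narrow, with a median width of 205 bp against 491 bp in replicate 1 and 249 bp against 681 bp in replicate 2. In the weakest decile of the WT list, 79.9% of peaks were lost in replicate 1 and 66.4% in replicate 2. In the strongest decile none was, and the strongest lost peak stood at the 80.5 percentile in replicate 1 and the 73.3 percentile in replicate 2. Gained peaks were weak as well, with a median percentile in the STAG2-KD list of 13.7 and 15.1. Since list length alone moves these shares, they were also taken over the same number of strongest peaks in WT and STAG2-KD, which gave 16.9% lost and 14.5% gained in replicate 1, and 16.8% lost and 15.4% gained in replicate 2.

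**Figure D1:**
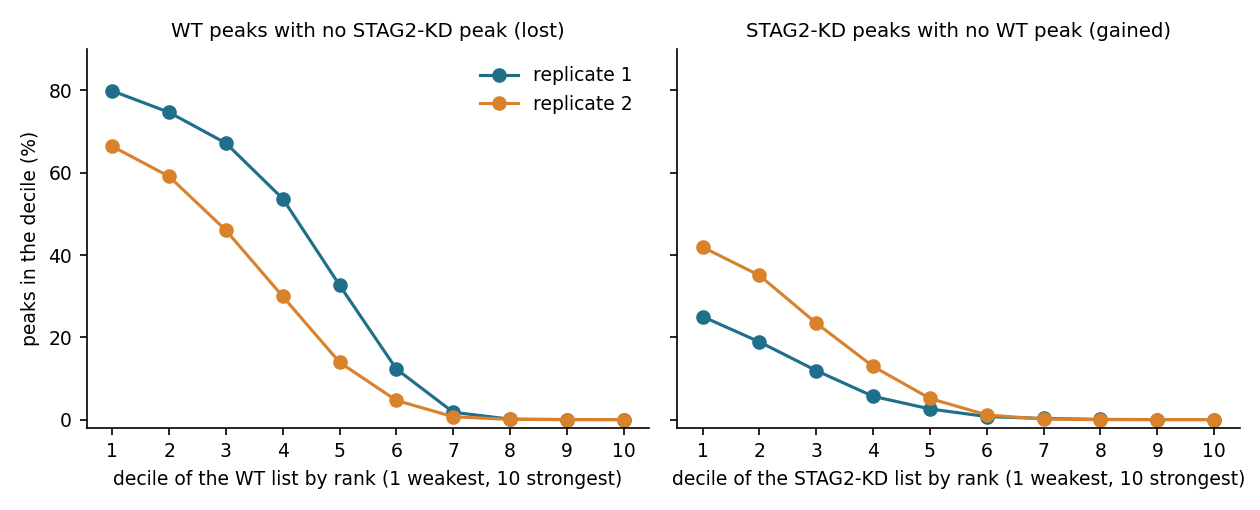
Share of WT STAG2 peaks that were lost (left) and of STAG2-KD STAG2 peaks that were gained (right), in percent of each decile of the list ranked by −log10 p, for replicate 1 and replicate 2. Loss fell from 79.9% and 66.4% in the weakest decile to 0 in the strongest.

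Sites lost in replicate 1 were lost in replicate 2 more often than sites retained there. Among WT sites present in both, 3575 of 24847 sites lost in replicate 1 were also lost in replicate 2, which is 14.4% (95% Wilson interval 13.96 to 14.83, counting error only), and 8.47% when WT and STAG2-KD lists were taken at equal length. Among sites retained in replicate 1, 98 of 52865 were lost in replicate 2, or 0.185% (0.152 to 0.226). The gap was present at like strength too. In the second-weakest quintile of WT peaks of replicate 2, loss was 35.8% at sites lost in replicate 1 and 4.21% at sites retained there, and in the middle quintile it was 11.3% against 0.549%. In the strongest quintile 0 of 902 sites lost in replicate 1 were lost in replicate 2, which allows a share of up to 0.424%. Read the other way, again over WT sites present in both, 97.3% of the 3673 sites lost in replicate 2 were lost in replicate 1. Of the 74039 sites retained in replicate 2, 28.7% were lost in replicate 1. Most of the 26272 lost peaks of replicate 2 lay where replicate 1 had no WT peak and are outside this comparison. A count of 3553 peaks of WT replicate 1 had no STAG2-KD peak in either replicate and overlapped such a peak of WT replicate 2, which was 4.58% of the 77535 WT sites that both replicates held. For gain in both replicates the number was 378 of 57208 STAG2-KD sites, or 0.661%.

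**Figure D2:**
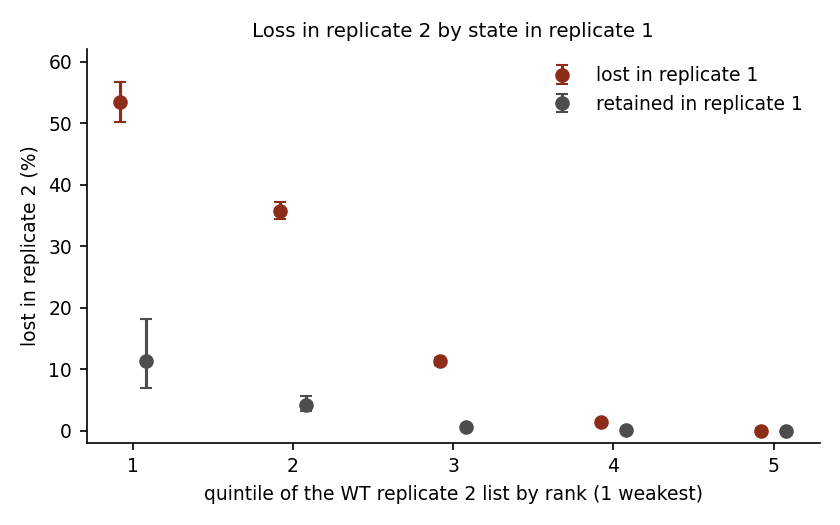
Percent of WT sites lost in replicate 2, by quintile of WT strength in replicate 2 and by the state of the site in replicate 1. Points are shares and bars are 95% Wilson intervals, and sites lost in replicate 1 lie above retained ones in the 4 weaker quintiles, with no loss of either kind in the strongest.

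Promoters kept their weak STAG2 sites more often than the rest of the genome did. A promoter site was one whose midpoint lay within 1 kb of an annotated transcript start. Over all peaks 24.2% of lost and 26.2% of retained sites were at promoters in replicate 1, and 16.5% and 23.5% in replicate 2, a difference of −1.98 and −7.02 percentage points. At equal list length the difference was −5.30 and −7.36. At like strength the gap was wider. In the weakest quintile of the WT list, 29.2% of lost and 55.4% of retained sites were at promoters in replicate 1, and 17.5% and 27.2% in replicate 2. When retained sites were weighted to the WT strength of the lost ones, the promoter share of lost sites was lower by 22.7 percentage points in replicate 1 and by 10.5 in replicate 2, a mean of −16.6 ± 8.62 (SD, n = 2). The bases around the summit followed the same order. Within 100 bp of the summit, GC content was 49.0% at lost and 56.2% at retained sites of like strength in replicate 1, and 45.7% and 49.4% in replicate 2. Lost sites lay in introns more often than retained ones, at 47.9% against 40.9% in replicate 1 and 52.3% against 44.8% in replicate 2. Sites between genes made up 23.9% of lost and 28.3% of retained sites in replicate 1, and 27.4% and 27.5% in replicate 2. Peaks with a midpoint in an exon away from promoters were few in every class, between 3.81% and 4.54% of lost or retained sites.

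The replicates went opposite ways on where gained peaks lay. At promoters lay 52.1% of gained peaks in replicate 1 but 19.3% in replicate 2. Retained STAG2-KD peaks of like strength had 36.2% and 23.9%, so gained peaks were above them in replicate 1 and below them in replicate 2. GC content at gained summits was likewise 56.3% in replicate 1 and 47.8% in replicate 2. Among the 378 sites gained in both replicates, 47.4% were at promoters and GC content was 54.2%, while among the 3553 sites lost in both the values were 12.2% and 45.7%.

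**Figure D3:**
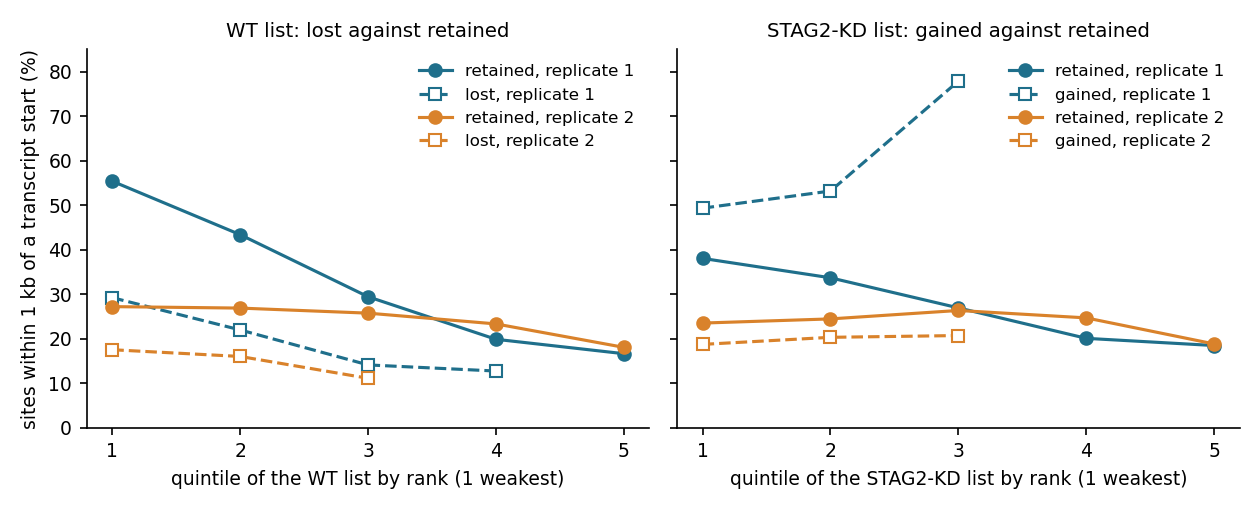
Percent of STAG2 sites within 1 kb of a transcript start, by quintile of list rank, for lost and retained WT peaks (left) and gained and retained STAG2-KD peaks (right), in both replicates. Points with under 100 sites are not drawn, and lost sites lie under retained sites of the same replicate and quintile throughout, while gained sites lie above retained ones in replicate 1 and under them in replicate 2.

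The CTCF core motif followed strength more than loss. A match lay within 100 bp of the summit in 5.40% of lost and 15.3% of retained peaks in replicate 1, and in 3.00% and 9.86% in replicate 2. At 5 kb from the summits of all WT peaks 0.655% of windows had a match. Retained peaks of like strength had a match in 7.12% in replicate 1 and 3.58% in replicate 2. The difference thus shrank to −1.72 percentage points in replicate 1 and −0.58 in replicate 2. For peaks of the CTCF antibody, which were far more common than the motif, the gap also shrank at like strength and kept its sign. A WT CTCF peak lay over 42.8% of lost and 86.8% of retained WT STAG2 peaks in replicate 1, and 56.4% of retained peaks of like strength. In replicate 2 the shares were 37.8%, 77.4% and 51.9%. Where CTCF, SMC1A and STAG1 peaks of WT cells all lay over a STAG2 peak, 8.15% of STAG2 peaks were lost in replicate 1 and 3.99% in replicate 2. Where none of the 3 did, the lost share was 85.4% and 74.8%. These last groups also differed in strength, with median WT percentiles of 72.0 and 14.3 in replicate 1, and 72.4 and 14.1 in replicate 2.

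Retained sites mostly stood lower in fold enrichment after knockdown. The median log2 ratio of STAG2-KD to WT fold was −0.39 in replicate 1, with 76.6% of 53609 sites lower, and −0.12 in replicate 2, with 59.5% of 92712 sites lower. At promoters the median was −0.24 and −0.05, and in introns −0.45 and −0.15. Percentiles fell too, by a median of 8.36 points in replicate 1 and 2.55 in replicate 2, but a percentile depends on the length of its list, and the STAG2-KD lists were shorter. Ranked among retained sites alone, the median shift over all sites was 0.30 in both replicates. On that scale promoter sites rose by a median of 2.98 points in replicate 1 and 2.12 in replicate 2, and intron sites fell by 0.71 and 0.40. The shift also went with WT strength, at 11.7 and 12.9 points in the weakest WT quintile and −0.53 and −0.40 in the strongest. In the weakest quintile the median log2 fold ratio was 0.29 and 0.34. However, 77.3% and 62.7% of WT peaks of that quintile were lost and have no shift. Only weak sites whose STAG2-KD peak passed the threshold were counted, so the rise in that quintile is partly built in. Promoters made up 55.4% and 27.2% of retained sites in the weakest quintile, against 16.6% and 18.1% in the strongest. These shifts by region were not matched for WT strength, so the same limit bears on the rise at promoters.

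Nearly all sites of the strongest WT quintile kept a peak, most at a lower fold. Their median log2 ratio of STAG2-KD to WT fold was −0.44 in replicate 1 and −0.22 in replicate 2, with 83.0% and 70.1% lower. A WT CTCF peak lay over 99.99% and 99.8% of these retained sites, and SMC1A and STAG1 peaks were as common. The 10 retained sites with the highest smallest percentile over the 4 lists all stood above the 99.8 percentile in every list. They were chosen for high places in all 4 lists, STAG2-KD included, so this does not measure stability. All 10 held peaks of STAG1, CTCF and SMC1A in each of their 4 lists. At the first of them, the site on chromosome 19 shown above, fold enrichment was 75.1 in WT against 73.7 in STAG2-KD for replicate 1, and 50.6 and 45.5 in replicate 2. 5 of the 10 were at promoters, among them those of SIK2, a kinase related to AMPK, SNX18, a membrane-trafficking protein, and ANKRD6. At the SIK2 promoter the fold was 68.0 in WT against 67.0 in STAG2-KD for replicate 1, and 35.3 and 35.5 in replicate 2.

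Retained sites with the largest falls and rises differed in where they lay. The 10 with the largest fall in both replicates had none at a promoter, with 7 in introns and 3 between genes. Over all sites retained in both replicates, 26.2% were at promoters, 41.1% in introns and 28.1% between genes. A CTCF peak in all 4 CTCF lists lay over 9 of the 10. Over all sites retained in both, 86.7% held a CTCF peak, not counted over all 4 lists, so this count is near the common share. In an intron of NTM, which encodes a neuronal cell adhesion protein, the percentile was 60.9 in WT against 5.19 in STAG2-KD for replicate 1, and 72.1 and 26.4 in replicate 2. In an intron of HK1, the gene of a hexokinase that starts glycolysis, the percentiles were 61.1 and 14.4 in replicate 1, and 64.8 and 22.2 in replicate 2. In ST3GAL5, whose enzyme makes the ganglioside GM3, they were 55.2 and 8.52, and then 67.7 and 21.2. The 10 with the largest rise were all at promoters, 5 of them on chromosome 19, and 6 of the 10 had no CTCF peak in any list. Only 1 of the 10 held a STAG1 peak in all 4 STAG1 lists, while 0 lacked an SMC1A peak in every list. A large rise needs a low WT percentile. In the weakest WT quintile, 55.4% and 27.2% of retained sites were at promoters in replicates 1 and 2. There 45.0% and 46.8% held a WT CTCF peak, and 37.8% and 46.1% a WT STAG1 peak. At the promoter of FBXL19, an F-box protein that binds CpG islands, the percentile was 22.8 in WT against 95.7 in STAG2-KD for replicate 1, and 30.0 and 92.9 in replicate 2. Its fold enrichment was 4.31 and 49.2 in replicate 1, and 3.02 and 21.4 in replicate 2. A STAG1 peak lay over the FBXL19 site in 0 of the 4 STAG1 lists, and an SMC1A peak in 1 of 4. At the promoter of METTL3, the enzyme that writes N6-methyladenosine on RNA, the percentile was 14.8 in WT against 76.7 in STAG2-KD for replicate 1, and 31.6 and 78.0 in replicate 2. The remaining promoters were those of NOP53, LIN37, ZNF331, CTU1, ZNF444, MAPKAPK5, CIAO2A with SNX1, and KAT7 with FAM117A. All of these shifts were chosen for their size and are a description.

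**Figure D4:**
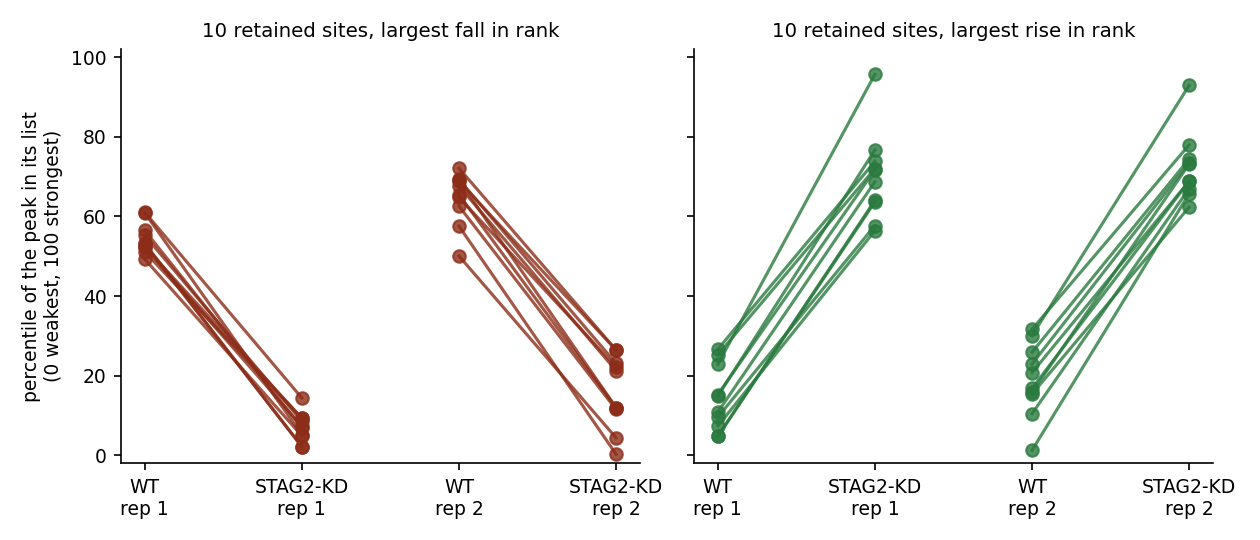
Percentile of the STAG2 peak within each of the 4 lists (0 weakest, 100 strongest) at the 10 retained sites with the largest fall (left) and the 10 with the largest rise (right) in both replicates, with lines joining WT and STAG2-KD of 1 replicate. Falling sites stood between 49.3 and 72.1 in WT, and rising sites between 1.22 and 31.6.

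Of the 10 strongest sites lost in both replicates, 4 lay in coding exons of genes of blood plasma proteins. The class as a whole was not rich in exons, since 8.36% of the 3553 sites lost in both had their summit in an exon, against 15.6% of the sites retained in both. The first of the 10, at chr4:74279103-74279329, covered a coding exon of ALB, the gene of serum albumin, with fold enrichment of 15.6 and a percentile of 65.3 in WT replicate 1 and a fold of 11.4 and a percentile of 73.3 in WT replicate 2, and no STAG2-KD peak in either. The second, at chr4:155506761-155506982, lay in a coding exon of FGA, the fibrinogen alpha chain, with folds of 13.9 and 10.6. The third was the ALB exon shown above, with 15.9 and 9.32, and a site in a coding exon of SERPINA1, the protease inhibitor alpha-1-antitrypsin, at chr14:94849020-94849209, had 9.32 and 9.28. All 4 of these lacked a CTCF and an SMC1A peak in every list. The other 6 of the top 10 lay in the AP3B1 pseudogene, with a fold of 13.2 in WT replicate 1 and 8.59 in WT replicate 2, at a start of PDE4B, a cyclic AMP phosphodiesterase, with 9.92 and 6.70, in introns of GLI3, a transcription factor of Hedgehog signalling, EPB41L3 and TSNARE1, and between genes near PRDM2.

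ALB held 10 STAG2 peaks in WT replicate 1 and 11 in WT replicate 2, but 0 and 1 in STAG2-KD. All 10 summits of replicate 1 and 10 of the 11 of replicate 2 fell in exons. Exons make up 14.1% of the ALB gene, and 85.2% of the bases of the 10 peaks of replicate 1 were exonic. Their WT percentiles lay between 20.3 and 68.5 in replicate 1 and between 32.4 and 78.0 in replicate 2. Many ALB transcripts start inside the gene in the annotation used, so some of these exon peaks counted as promoter sites above. Over the 20 liver plasma protein genes, 34 WT peaks were present in replicate 1, of which 24 were lost (70.6%), and 23 had a summit in an exon of the gene (67.6%). Over all WT peaks of that replicate 32.2% were lost and 14.9% had a summit in an exon. In replicate 2 there were 47, of which 29 were lost (61.7%), and 28 had a summit in an exon (59.6%), against 22.1% and 13.0% over all WT peaks. ALB, SERPINA1 and HP, singled out after their values were seen, held 16 of the 24 lost peaks in replicate 1 and 16 of the 29 in replicate 2. The other 17 genes lost 8 of 18 and 13 of 30. They still include FGA, whose site stood second among those lost in both, and which lost 1 of 1 and 2 of 2 peaks. FGB, also among them, lost 1 of 1 in both replicates. Since the list was chosen with earlier results of these data known, its shares and counts are a description. In SERPINA1 3 of 3 and 5 of 5 WT peaks were lost, all with summits in exons, and it was the 1 gene of 5636 with 3 or more WT peaks in each replicate that lost every peak in both. In HP, the gene of haptoglobin, 3 of 3 and 1 of 1 peaks were lost, again all exonic. Other genes of the list behaved differently: the single peak of APOA1 and that of APOH were retained in both replicates, and both held CTCF, SMC1A and STAG1 peaks in every list. None of the CTCF or SMC1A lists had a peak over the 10 ALB sites, whereas STAG1 peaks lay over 3 of them in WT replicate 1 and 4 in WT replicate 2, and over 0 in STAG2-KD. These genes are textbook markers of hepatocytes and not of melanocytes. The source of these exon peaks was not tested. Read by promoter site, 2 of 6 genes of the list were lost in both replicates, ALB and SERPINA1, against 132 of 10423 over all coding genes. The strongest promoter peak was taken in each replicate, and for ALB it was not the same peak in both.

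**Figure D5:**
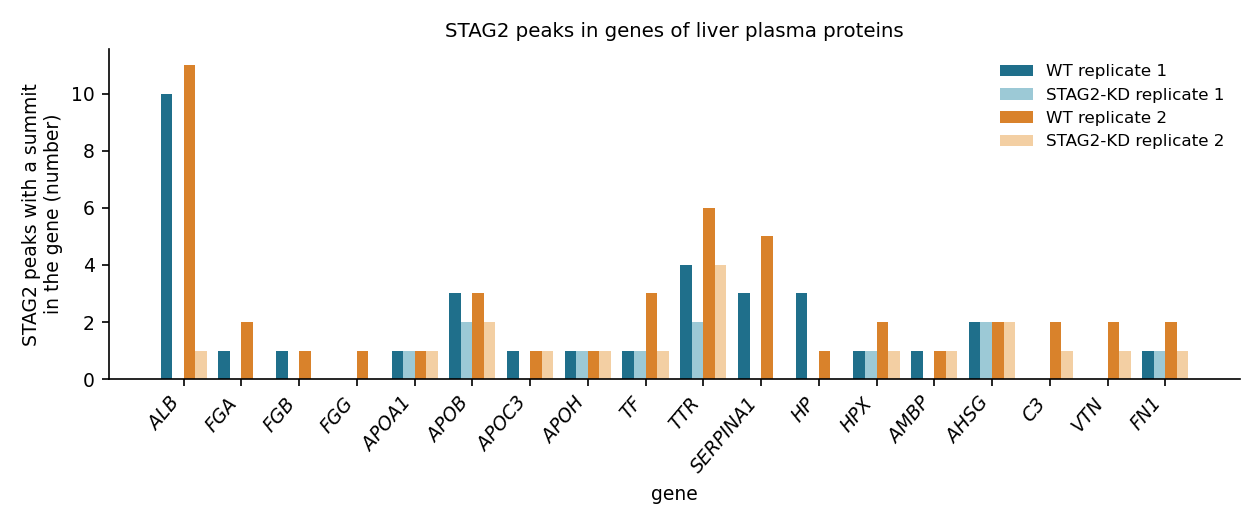
Number of STAG2 peaks with a summit inside each gene of the liver plasma protein list that had a WT peak, for WT and STAG2-KD in both replicates. ALB had 10 WT and 0 STAG2-KD peaks in replicate 1 and 11 and 1 in replicate 2, and SERPINA1 had 3 and 5 in WT and 0 in STAG2-KD.

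Apart from ALB, the genes with the most sites lost in both replicates were very long ones, in which WT peaks were also many. RBMS3, an RNA-binding protein gene of 1436 kb, had 9 such sites, all outside exons. It lost 32 of 42 WT peaks (76.2%) in replicate 1 and 26 of 65 (40.0%) in replicate 2. AUTS2 lost 15 of 31 and 19 of 44, and IL1RAPL1, a synaptic adhesion protein gene on the X chromosome, lost 18 of 31 and 16 of 41, each with 8 sites lost in both. PDE4D, another cyclic AMP phosphodiesterase, NTM, CDKAL1 and ROBO1, an axon guidance receptor, had 7 each, and SOX5, a transcription factor of cell fate, and SEMA5A, a semaphorin, had 6 each. In PDE4D 30 of 55 and 22 of 82 WT peaks were lost. The lost share was higher in longer genes up to a point. It was 28.6% in replicate 1 and 17.1% in replicate 2 in coding genes under 50 kb, 33.9% and 21.5% in those of 50 to 200 kb, 37.9% and 25.3% in those of 200 to 500 kb, and 36.6% and 25.5% in those of 500 kb or more. No gene had more than 2 sites gained in both replicates. 6 had 2, namely AGBL4, ANAPC1, a subunit of the anaphase-promoting complex, DSE, HNRNPC, an RNA-binding protein of spliceosomal transcripts, GLOD4 and CNOT1, the scaffold of the CCR4-NOT deadenylase. At CNOT1 there was no WT peak in either replicate and 2 STAG2-KD peaks in both.

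The strongest gained sites were mostly promoters, 8 of 10. The first, at chr2:68694332-68694765 between the starts of FBXO48 and APLF, a DNA repair factor, had no WT peak and a fold of 13.5 in STAG2-KD replicate 1 and 4.90 in STAG2-KD replicate 2. The next, at the start of TROAP, had 11.6 and 5.12, and the one at the start of IFTAP, inside RAG2, had 12.3 and 5.71. 9 of the 10 had no CTCF peak in any list, while each of them held an SMC1A peak in at least 1 list. Only 1 of the 10 held a STAG1 peak in all 4 STAG1 lists, and the TROAP and IFTAP sites held it in 0. Among all 378 sites gained in both replicates, 47.4% were at promoters. Of these 378, 20.6% held a CTCF peak, 40.2% an SMC1A peak and 38.9% a STAG1 peak, not counted over all 4 lists. Lacking a CTCF peak was thus common in the whole class.

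The order of chromosomes by lost share was partly shared between replicates, with a Spearman's rho of 0.66. The lowest shares were on chromosome 19, at 27.3% in replicate 1 and 18.1% in replicate 2, followed by chromosome 17 at 28.8% and 18.2%. The highest were on chromosome 6 in replicate 1, at 34.8%, and on chromosome 13 in replicate 2, at 26.2%. Over the 23 chromosomes, Spearman's rho between lost share and coding genes per Mb was −0.66 in replicate 1 and −0.83 in replicate 2, given as a description, since chromosomes share their libraries. Within 1840 windows of 1 Mb with 20 or more WT peaks in each replicate, the lost share had 10th and 90th percentiles of 18.8% and 46.2% in replicate 1, and of 11.8% and 32.3% in replicate 2. The window at chr3:29000001-30000000, inside RBMS3, lost 84.8% of 33 WT peaks in replicate 1 and 46.3% of 54 in replicate 2. The window at chr14:22000001-23000000, which holds the T cell receptor alpha locus, lost 2.44% of 41 and 2.00% of 50.

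A weak peak was lost less often beside a retained neighbour than beside a lost one, most so at close range. Among WT peaks in the weaker 2 quintiles of the list whose nearest WT peak lay within 2 kb, 75.0% were lost where that neighbour was lost and 58.4% where it was retained in replicate 1, and 61.5% against 43.7% in replicate 2. At 2 to 10 kb the shares were 76.7% against 68.0% and then 57.0% against 48.5%, and at 10 to 50 kb 75.1% against 67.4% and then 58.1% against 50.9%. Beyond 50 kb the shares were 75.3% against 69.8% in replicate 1 and 60.0% against 54.9% in replicate 2. Beside a lost neighbour the share thus varied little with distance, while beside a retained one it was lowest within 2 kb. The widest STAG2-KD peaks spanned 3081 bp in replicate 1 and 8374 bp in replicate 2. Under the overlap rule, 1 wide STAG2-KD peak can make 2 close WT peaks retained together. How much this adds to the gap within 2 kb was not tested.

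Promoter sites of the genes that the study and the melanoma field turn on were read against all coding genes. A coding gene was counted when it had a WT promoter peak in both replicates, which held for 10423 genes. The strongest such peak was taken in each replicate, so for some genes the replicates were read at different sites. Of these genes, 18.7% lost the site so chosen in replicate 1 and 1.47% in replicate 2. Of 8452 retained in both, 49.5% had a lower percentile in STAG2-KD in both replicates and 21.5% a higher one.

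In type I interferon signalling, the pathway that runs from the interferon receptor to transcription factors such as STAT2 and IRF9, 5 of 12 promoter sites were lost in replicate 1 and 2 of 12 in replicate 2. STAT2 was lost in both, from percentiles of 35.4 and 38.0 in WT, and so was IRF3, from 5.85 and 19.9. IFNAR2, a subunit of the receptor, USP18, a brake on the receptor, and PTPN2, a phosphatase of the pathway, were lost in replicate 1 only. Their percentiles in replicate 2 were 47.8 in WT and 54.3 in STAG2-KD for IFNAR2, 59.3 and 21.2 for USP18, and 48.8 and 51.2 for PTPN2. The promoter site of IRF9, at chr14:24630098-24630580 in WT replicate 1, was retained at a percentile of 72.2 in WT against 57.4 in STAG2-KD for replicate 1, and at 82.8 and 79.7 in replicate 2. Its fold enrichment was 20.5 and 10.8 in replicate 1, and 17.9 and 14.4 in replicate 2. IRF7 had no WT promoter peak in replicate 1, and in replicate 2 its percentile was 25.4 for WT against 19.3 for STAG2-KD. With 12 genes these counts describe single promoters.

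Of the interferon-stimulated genes, 2 of 12 sites were lost in replicate 1 and 0 in replicate 2. The lost ones were RSAD2, an antiviral enzyme, and IFIH1, the RNA sensor MDA5. At ISG15, a ubiquitin-like modifier, the fold was 35.0 in WT against 17.1 in STAG2-KD for replicate 1, and 18.97 and 14.9 in replicate 2. At CD274, which encodes PD-L1, the percentile was 83.8 in WT against 85.5 in STAG2-KD for replicate 1, and 93.2 and 92.8 in replicate 2, with folds of 36.9 and 27.8, and of 30.8 and 23.7. The fold at CD274 was thus lower in both replicates while its place in the list moved by less than 2 points.

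Melanocyte lineage genes lost 4 of 12 promoter sites in replicate 1 and 0 in replicate 2. These were DCT, an enzyme of melanin synthesis, GPR143, a melanosome receptor, TRPM1, an ion channel, and SLC45A2, a melanosome transporter. DCT had a percentile of 52.3 in WT replicate 1 and no STAG2-KD peak, while in replicate 2 it stood at 75.0 for WT against 42.8 for STAG2-KD. Over the whole DCT gene, 7 of 7 WT peaks were lost in replicate 1 and 1 of 5 in replicate 2. In the dedifferentiated melanoma state list 2 of 13 were lost in replicate 1, WNT5A and ZEB1, and 0 in replicate 2. In the MAPK list MAPK3, the kinase ERK1, was lost in both replicates from percentiles of 29.7 and 54.7, and ETV4 in replicate 1 from 46.5. DUSP6, a phosphatase that restrains ERK, was retained, with folds of 13.2 in WT against 7.91 in STAG2-KD for replicate 1 and 11.9 and 10.6 in replicate 2.

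No promoter site was lost in either replicate in the lists of cohesin and its regulators (10 sites), melanoma drivers and suppressors (10 sites), antigen presentation (2 sites) or housekeeping (14 sites). The 2 antigen presentation sites were those of B2M and NLRC5, out of 12 genes. HLA-B and TAP2 had promoter peaks in WT replicate 1, at percentiles of 61.1 and 75.6, but no peak in either list of replicate 2, so they were not counted. The STAG2 promoter itself was among the strongest sites of every list, with percentiles of 99.6 in WT against 99.5 in STAG2-KD for replicate 1, and 99.7 and 99.8 in replicate 2. At STAG1, the gene of the alternative subunit, they were 97.3 and 99.3, and then 99.9 in both.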

How the data were processed

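ChIP-seq was done in M14 cells with an antibody against STAG2 (ab4464). The study's methods give bowtie2 for alignment to hg19, samtools and picard for filtering, and MACS2 for peaks of each library over its input. The submitters' processing notes name BWA and CASAVA 1.4 too, without a role. The deposited lists give each peak a score, a fold enrichment (the ratio of the pileup at the summit to the local background) and a −log10 p-value and −log10 q-value, all as the authors made them. The authors' threshold was a −log10 q-value of 2 in replicate 1 and a −log10 p-value of 2 in replicate 2, as the lowest deposited values show, so fold and list length are not comparable between replicates.

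Peaks outside chromosomes 1 to 22 and X were left out, which was 0.207% to 4.02% of a list. Overlaps of at least 1 bp, percentiles, annotation by midpoint (promoter, exon, intron, intergenic, in this order, GENCODE on GRCh37) and motif matches on both strands were computed in Python 3 with numpy, pandas and scipy, with functions tested on simulated data. Sequences are from the GRCh37 reference, for the first sites of each kind whose window held no untranslated exon. Shares at like strength were taken within quintiles of list rank, weighted by the number of lost or gained sites. Read depth came from the fold and −log10 p columns, and only its ratio within a replicate is given, since genome size and fragment extension are not stated. The genes named are those of a rule: the 10 sites lost or gained in both replicates with the lowest rank sum, the 10 strongest retained sites, the 10 largest falls and rises, the 10 genes with most sites lost or gained in both (only those with 2 or more gained are named), and gene lists read by promoter site. Members, rule and lists were chosen with earlier results of these data known, and the shares at like strength and the windows of 1 Mb were added after the values were seen. Alternatives were other thresholds, overlaps, list lengths, promoter and motif definitions, rank measures and leaving out a replicate. Peaks are not replicates, so no p-value was computed over peaks.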

Additional observations from a re-analysis of the deposited data

How the results depend on the processing

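With 1 list per condition and replicate, spread is known only between 2 replicates, and depth is known only as a ratio. The direction of the change in list length held at both other thresholds, with a mean log2 ratio of −0.29 at a −log10 q-value of at least 2 and −0.24 at 5 or more, and with the replicate block, where the mean was again −0.30 and the exact sign-flip test over 2 pairs gave p = 0.5, the smallest it can give. Without one or the other replicate it was −0.44 and −0.16. Taking equal list lengths moved the mean lost share from 27.1% to 16.9% and the gained share from 9.26% to 15.0%, by construction, since fewer WT peaks enter. The share lost in replicate 2 at sites lost in replicate 1 moved from 14.4% to 18.7% at a common −log10 q-value of at least 2 and to 8.47% at equal list length, and at sites retained in replicate 1 from 0.185% to 0.252% at the common threshold. The median percentile shift of retained sites, −5.46 as a mean over replicates, turned to 0.30 when ranked among retained sites only, a scale without the lost peaks. Leaving out 1 replicate gave lost shares of 22.1% to 32.2%, gained shares of 6.52% to 12.0%, promoter differences of −7.02 to −1.98 percentage points, −22.7 to −10.5 at like strength, motif differences of −9.94 to −6.86, −1.72 to −0.58 at like strength, and rank shifts of −8.36 to −2.55. The promoter and motif differences stayed negative under every other alternative run, as did the rank shift when ranked by fold. The promoter difference over all peaks in replicate 1, −1.98, was −5.30 at equal list length.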
